A study of Mus musculus with 6 samples.

Results

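Glucose use in dental pulp was followed through 33 genes, chosen by symbol as the genes of glucose uptake, glycolysis, lactate handling, pyruvate entry into mitochondria and muscle glycogen. These 33 symbols name 34 of the 53342 rows of the gene table, because Aldoa is carried by 2 neighbouring Ensembl genes. The rule that picks them uses gene symbols and no measured value, although the list was drawn up with earlier results of these data known. All 34 passed the filter on low counts that left 24534 genes for testing, with at least 30.2 estimated counts in every sample. RNA-sequencing compared dental pulp from 3 WT mice (samples 2, 4 and 5) with pulp from 3 homozygous Mmp13-/- mice (samples 1, 2 and 6), all C57BL/6 and aged 3 months. Both genotypes carry no other stated allele or treatment. The methods describe male, homozygous MMP13-deficient animals, and each library came from an independent biological sample. The tooth is given as the molar, with a column kit, in the sample labels and as the incisor, with TRIzol, in the methods, and no choice was made between them. Among the sample titles only those of WT name the molar, and those of Mmp13-/- name no tooth. From the titles alone, a difference of tooth and the genotype cannot be told apart. Values of the samples are given below in the order 2, 4, 5 for WT and 1, 2, 6 for Mmp13-/-.

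Glycolysis splits glucose into pyruvate in the cytosol, and pyruvate is then either reduced to lactate and exported or taken into mitochondria and oxidised by the pyruvate dehydrogenase complex. Many steps are run by several isoforms from separate genes, of which 1 is typical of skeletal muscle and the others are found in most tissues, in neurons or in liver. Dental pulp is a loose connective tissue of fibroblasts, odontoblasts, vessels and nerves with no skeletal muscle of its own, while skeletal muscle holds very large amounts of the muscle isoforms and of glycogen phosphorylase.

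Mmp13 (ENSMUSG00000050578, chromosome 9 from 7272514 to 7283331 in GRCm38), the collagenase gene deleted in these mice, held 1069, 1139 and 827 estimated counts in WT and 10.2, 32.9 and 40.4 in Mmp13-/-. Its log2 fold change was -4.96 (SE 0.46, edgeR quasi-likelihood test with Benjamini-Hochberg adjustment, adjusted p = 7.68e-05). Library totals were 28442936 to 29980236 estimated counts in WT and 21561420 to 26547121 in Mmp13-/-, so a gene at 3 counts, the floor of detection, stood at 0.1 to 0.139 CPM (estimated counts per 1000000, below always of the TMM-scaled library), a limit that covers counting error only. The Mmp13-/- libraries had more reads in genes that pulp should not use, since 1451 odorant and vomeronasal receptor genes summed to 308, 355 and 1196 CPM of the library total against 17.8 to 20.8 CPM in WT. Mmp13-/- sample 6 stood apart, with 53.7% of its counts in its 10 most abundant genes against 22.6% to 27.2% in the other 5 libraries. Pulp markers were present in every sample, with Dspp, the dentin sialophosphoprotein gene of odontoblasts, at 522 to 1641 CPM in WT against 1566 to 2415 CPM in Mmp13-/-. Skeletal muscle genes were abundant too, and titin (Ttn) alone took 5.19% to 5.95% of all counts in WT and 1.44% to 4.48% in Mmp13-/-.

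Most of the glucose genes were lower in Mmp13-/- pulp. Of the 34 rows, 23 fell, 1 rose (Slc2a3) and 10 did not pass an adjusted p of 0.05, where 24.3% of all 24534 genes tested fell, 27.3% rose and 51.6% passed in either direction. A fall of over 2-fold was seen in 15 members, and 9.68% of all genes tested fell that far (30.1% changed that far in either direction). The median log2 fold change of the members was -0.87 and that of all genes tested 0.10. All 3 Mmp13-/- samples lay below all 3 WT samples in 23 members and above them in 1, against 29.1% and 31.8% of all genes tested. Within the Mmp13-/- group, sample 6 was the lowest in 29 of 34 members. This was not particular to the members, since sample 6 was also lowest in all 8 erythroid, 8 neutrophil and 8 proliferation markers. It was lowest in only 1 of 8 adipocyte markers and 2 of 9 neuron and Schwann cell markers. The share over all genes tested was not counted. Without sample 6, 22 members fell and 2 rose (Slc2a3 and Slc16a1), against 23.8% and 27.5% of all genes tested, and their median was -0.76. Leaving out WT samples 2, 4 and 5 and Mmp13-/- samples 1, 2 and 6 in turn left 20 to 24 members passing, where 47.8%, 40.5%, 43.8%, 47.1%, 46.5% and 51.2% of all genes tested passed. Scaled by total counts, 16 members passed, each of them lower, and 40.4% of all genes tested passed.

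GC content moved with these changes and was unequal between members. The members that fell had a median transcript GC content of 54.8%, the other members 48.0% and all genes tested 49.1%. When GC content was corrected for within each sample, 11 members fell and 4 rose (Slc2a3, Hk1, Eno1 and Ldhb), the median moved to -0.38, and 9 members changed the sign of their difference, while 10.9% of all genes tested fell, 26.4% rose, 37.3% passed in either direction and the median of all genes was 0.28. The part of GC content in any single result was not tested beyond this correction. Corrected values are given below for the members whose call, sign or size they change most.

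**Figure D1:**
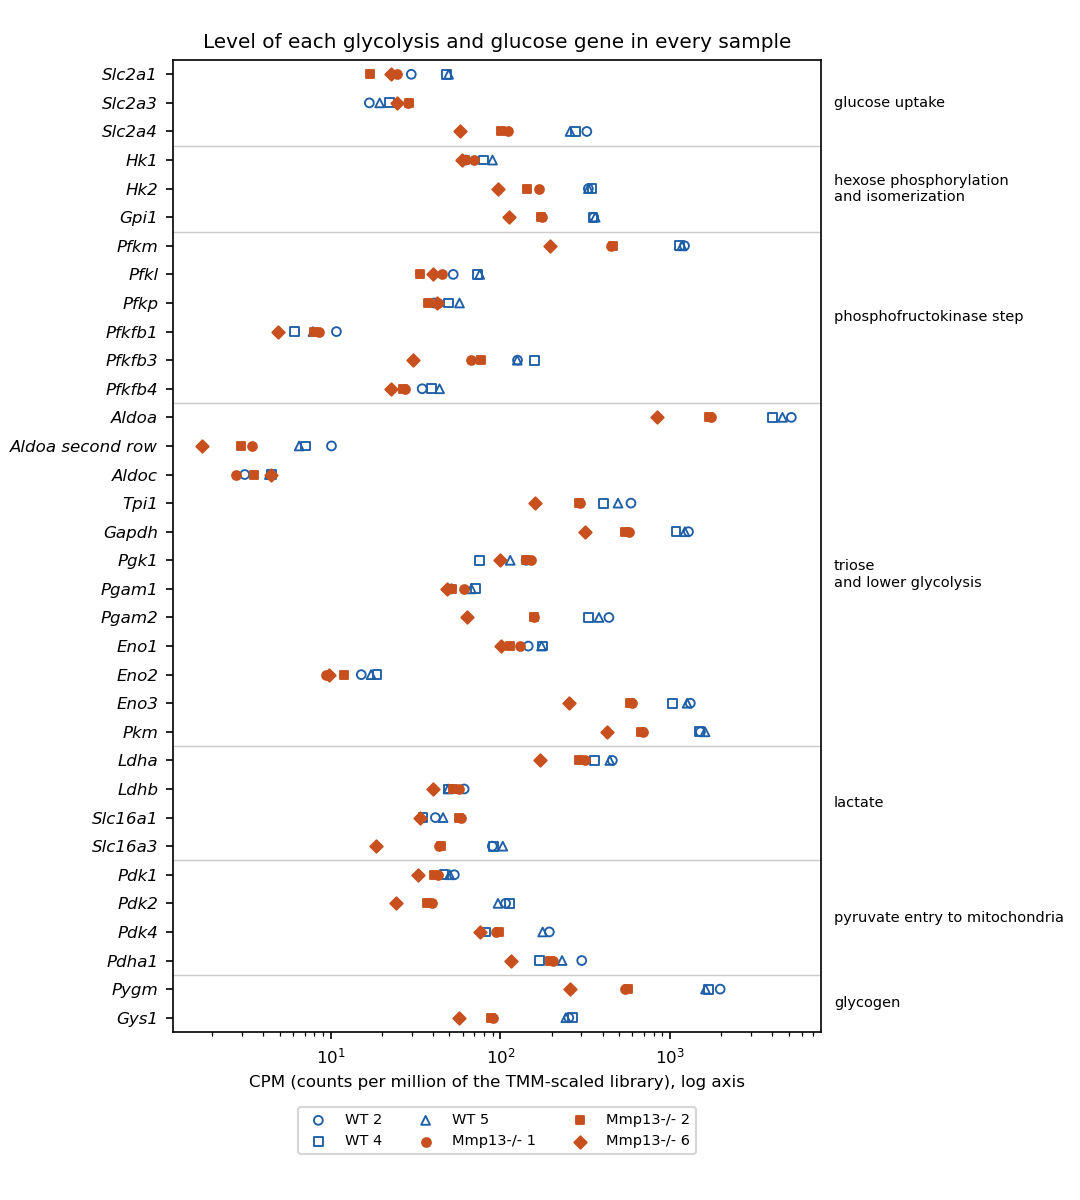
Level of each of the 34 rows in each of the 6 samples in CPM on a log axis, with WT as open blue and Mmp13-/- as filled orange symbols, grouped by role from uptake to glycogen. Levels can be compared between samples of 1 gene but not between genes, whose lengths differ; the filled symbols lie left of the open ones without overlap in 23 rows, and the diamond of Mmp13-/- sample 6 is the leftmost filled symbol in 29.

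Per kilobase of exon, the scale on which genes can be compared, 4 of the 5 muscle isoforms ranked among the highest members in WT pulp. Aldoa, the aldolase of muscle and most other tissues, led at a mean of 1581 CPM per kb. Eno3 (691 CPM per kb), Pygm (547), Pgam2 (456) and Pfkm (352), all muscle isoforms, followed Aldoa, ahead of the broadly used Pkm at 307 and Gapdh at 289 CPM per kb. In Mmp13-/- pulp the order was Aldoa (491 CPM per kb), Eno3 (274), Pgam2 (150), Pygm (141), Pkm (120), Gapdh (116) and Pfkm (110). Slc2a4, the other muscle isoform, ranked 10 of 34 in WT (82.2 CPM per kb) and 14 of 34 in Mmp13-/- (25.9 CPM per kb). The 5 muscle isoforms held 40.6% to 41.5% of the summed CPM per kb of all members in WT and 36.7%, 37.8% and 31.1% in Mmp13-/-, which do not overlap.

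The 5 muscle isoforms were Slc2a4, the insulin-responsive glucose transporter GLUT4; Pfkm, muscle phosphofructokinase; Pgam2, muscle phosphoglycerate mutase; Eno3, the muscle enolase; and Pygm, the glycogen phosphorylase of muscle. All 5 fell and all fell over 2-fold, where 24.3% of all genes tested fell and 9.68% fell that far. Their log2 fold changes ran from -1.95 to -1.33 with a median of -1.66. For each of them the genotypes did not overlap, and 29.1% of all genes tested were lower without overlap. With the GC correction 3 of the 5 passed (Slc2a4, Pfkm and Pygm), where 10.9% of all genes tested fell. The promoter windows of Pgam2 and Pygm are shown because these 2 of the 4 muscle isoforms with a window in the table carry CAGCTG, the E-box read by the myogenic factors of the MyoD family. They are 250 bases before a RefSeq start site on GRCm38.p6, written on the strand of the gene, with CAGCTG in capitals and, in Pgam2, also the A/T-rich motif of the muscle factor MEF2.

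Pgam2, chr11:5803797-5804046, minus strand: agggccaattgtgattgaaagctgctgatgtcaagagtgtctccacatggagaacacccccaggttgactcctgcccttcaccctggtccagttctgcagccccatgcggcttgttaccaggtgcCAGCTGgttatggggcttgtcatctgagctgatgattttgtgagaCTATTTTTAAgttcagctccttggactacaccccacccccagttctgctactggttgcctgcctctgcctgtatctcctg

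Pygm, chr19:6384158-6384407, plus strand: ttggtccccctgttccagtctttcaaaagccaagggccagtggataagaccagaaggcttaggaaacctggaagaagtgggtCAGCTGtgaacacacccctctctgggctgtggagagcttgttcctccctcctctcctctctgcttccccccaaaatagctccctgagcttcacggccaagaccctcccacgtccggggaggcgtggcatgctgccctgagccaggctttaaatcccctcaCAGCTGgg

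Among all 32851 windows of the same length, 13.0% hold CAGCTG, which reads the same on both strands, and 2.92% hold the MEF2 motif on either strand. Of the 31 member genes with a window, 7 hold CAGCTG (Gpi1, Gys1, Pdk1, Pfkfb1, Pgam2, Pkm and Pygm) and 2 hold the MEF2 motif (Pfkfb1 and Pgam2). By window these are 14.6% and 4.17% of the 48 member windows, near the shares of all windows. A match in a window is a description of its letters and not of binding.

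The windows of Pgam1, the broadly used mutase isoform, and Ldha, the lactate dehydrogenase gene most used in glycolytic tissue, are shown next. ACGTG and GCGTG, both forms of the core of the hypoxia response element, are in capitals on either strand. These letters do not set the broad genes apart, since the Pygm window above also holds 1 ACGTG and 1 GCGTG, left in lower case there.

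Pgam1, chr19:41911621-41911870, plus strand: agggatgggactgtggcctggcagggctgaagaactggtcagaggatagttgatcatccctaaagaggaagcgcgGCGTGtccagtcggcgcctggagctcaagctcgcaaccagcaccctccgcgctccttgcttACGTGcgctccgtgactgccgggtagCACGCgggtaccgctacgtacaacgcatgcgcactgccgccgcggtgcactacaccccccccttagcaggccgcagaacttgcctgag

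Ldha, chr7:46845554-46845803, plus strand: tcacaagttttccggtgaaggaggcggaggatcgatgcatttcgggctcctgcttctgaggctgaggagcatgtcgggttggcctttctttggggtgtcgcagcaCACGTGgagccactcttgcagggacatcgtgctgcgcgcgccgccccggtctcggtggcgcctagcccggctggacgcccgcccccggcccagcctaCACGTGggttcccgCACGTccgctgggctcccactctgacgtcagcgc

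The Ldha window lies inside the annotated span of the gene, before an internal start site. Across the members, 13 of 31 genes hold ACGTG in a window and 20 hold GCGTG, counting both strands; by window these are 33.3% and 50%, against 16.6% and 28.2% of all windows, whose base composition was not matched to the members. In the 7 windows of muscle isoforms the shares were 42.9% and 57.1%, and in the 19 windows of broad core enzymes they were 31.6% and 47.4%.

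Glucose uptake changed in both directions. Slc2a4 (ENSMUSG00000018566, chromosome 11 from 69942539 to 69948188) stood at 323, 277 and 257 CPM in WT against 111, 101 and 58.0 CPM in Mmp13-/-. Every Mmp13-/- sample was far below every WT sample, a log2 fold change of -1.66 (SE 0.24, edgeR adjusted p = 0.000478) that was -0.95 with the GC correction (adjusted p = 0.00977). The basal transporter Slc2a1 (GLUT1), used by most cells, measured 29.8, 47.8 and 49.4 CPM in WT against 24.5, 17.1 and 22.7 CPM in Mmp13-/-. Its groups did not overlap although WT sample 2 lay near Mmp13-/- sample 1, and its log2 fold change was -0.98 (SE 0.22, edgeR adjusted p = 0.00398), which became -0.28 (adjusted p = 0.308) with the GC correction.

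Slc2a3 (GLUT3), the high-affinity transporter of neurons and leukocytes, was the member that rose. It stood at 16.9, 22.1 and 19.4 CPM in WT against 28.5, 28.7 and 24.5 CPM in Mmp13-/-, with no overlap. The log2 fold change was 0.49 (SE 0.15, edgeR adjusted p = 0.0213) and 0.58 with the GC correction (adjusted p = 0.00924). The call was lost without WT sample 2, WT sample 5, Mmp13-/- sample 1 or Mmp13-/- sample 2 (adjusted p 0.112 to 0.167), with total counts, with no filter and with limma. Neutrophil markers rose in the same samples, 8 of 8, with a summed level of 136 to 283 CPM in WT against 709 to 1737 CPM in Mmp13-/- and no marker at 0, and their part in the Slc2a3 result was not tested.

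Of the hexokinase genes, whose products trap glucose in the cell, Hk2 fell. Hk2, the hexokinase of muscle, fat and growing cells, stood at 330, 346 and 330 CPM in WT against 169, 144 and 97.1 CPM in Mmp13-/-. Its WT samples were close together, and the log2 fold change was -1.30 (SE 0.21, edgeR adjusted p = 0.000871), or -0.80 with the GC correction (adjusted p = 0.00599). Hk1, the housekeeping hexokinase, measured 62.3, 79.4 and 89.7 CPM in WT against 70.0, 61.5 and 59.3 CPM, overlapping groups whose log2 fold change, -0.28, missed the threshold (edgeR adjusted p = 0.185). With the GC correction the Hk1 difference turned to 0.60 and passed (adjusted p = 0.00889). Gpi1, which converts glucose 6-phosphate to fructose 6-phosphate, was at 355, 351 and 362 CPM in WT against 176, 173 and 112 CPM in Mmp13-/-, a log2 fold change of -1.21 (edgeR adjusted p = 0.000983), or -0.69 with the GC correction (adjusted p = 0.00782).

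At the phosphofructokinase step, which commits sugar to glycolysis, 4 of 6 members fell, beside 24.3% of all genes tested. Pfkm (ENSMUSG00000033065, chromosome 15 from 98092589 to 98132451) stood at 1217, 1133 and 1175 CPM in WT against 446, 458 and 196 CPM in Mmp13-/-. The groups were far apart and sample 6 was the lowest, with a log2 fold change of -1.68 (SE 0.31, edgeR adjusted p = 0.00159), or -0.97 with the GC correction (adjusted p = 0.0229). Pfkl, the liver-type subunit, fell by 0.76 on the log2 scale (edgeR adjusted p = 0.00554), but the difference was 0.16 with the GC correction. Pfkp, the platelet-type subunit, had overlapping groups at 40.7 to 57.3 CPM in WT against 37.1 to 42.6 CPM in Mmp13-/- and did not pass (edgeR adjusted p = 0.169), and it passed without WT sample 2 (adjusted p = 0.0481). The regulatory enzymes that set fructose 2,6-bisphosphate, the activator of phosphofructokinase, differed among themselves. Pfkfb3, the inducible form, was at 126, 159 and 126 CPM in WT against 66.7, 76.7 and 30.7 CPM in Mmp13-/-, a log2 fold change of -1.24 (edgeR adjusted p = 0.00566). Pfkfb4 fell by 0.61 (edgeR adjusted p = 0.00653), with a difference of 0.13 after the GC correction, and Pfkfb1, the form of liver and muscle, did not pass at 6.07 to 10.8 CPM in WT against 4.89 to 8.49 CPM in Mmp13-/- (edgeR adjusted p = 0.548).

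**Figure D2:**
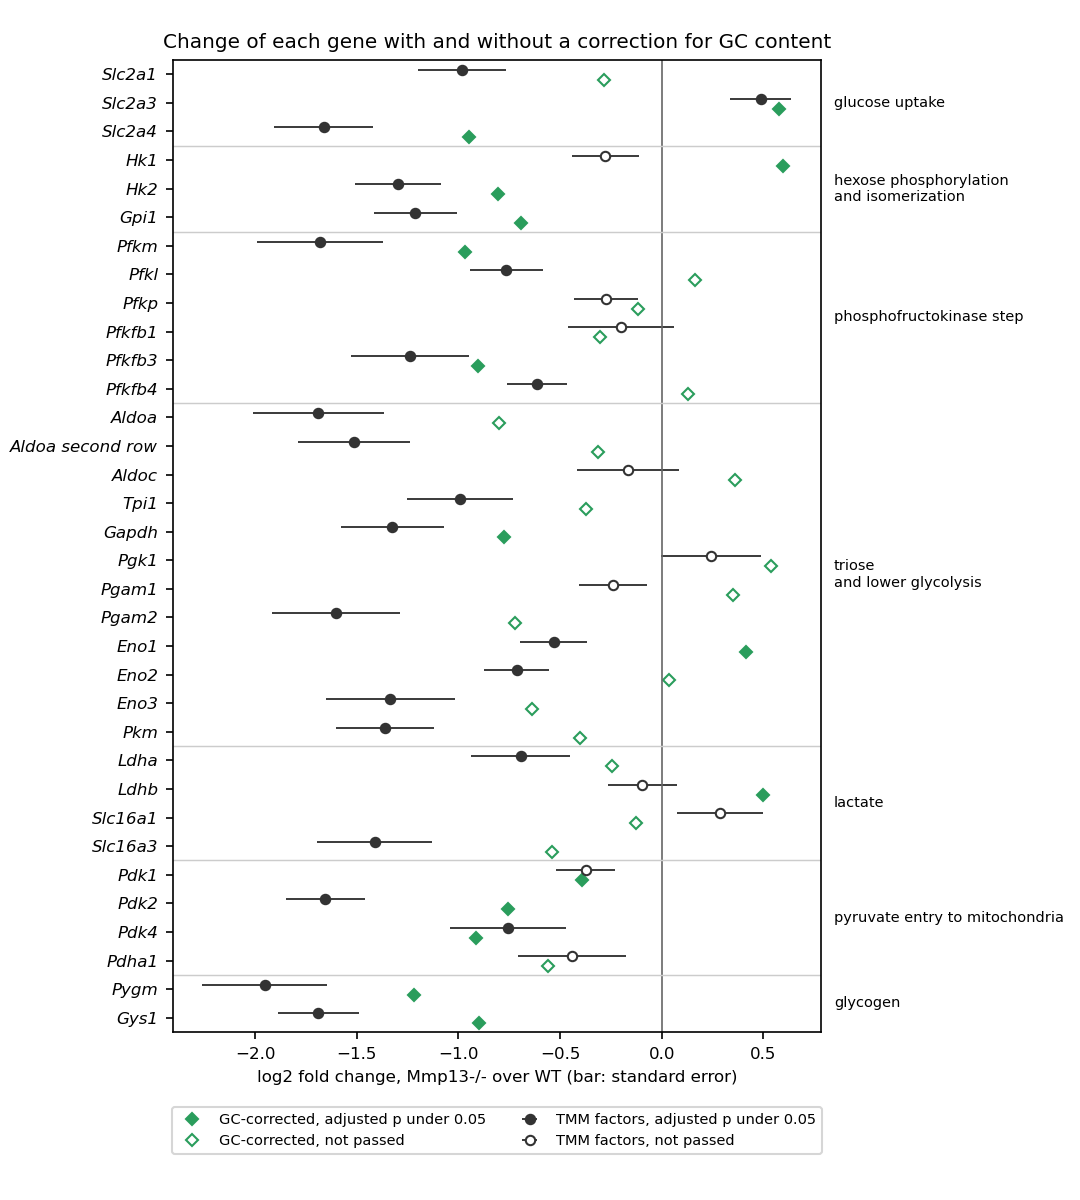
Log2 fold change of each row in Mmp13-/- over WT, with the standard error of edgeR's fit as a bar (dark circles) and the GC-corrected value (green diamonds); filled symbols have an adjusted p under 0.05. The circles lie left of 0 in 31 of 34 rows, most diamonds lie closer to 0 or to the right of it, and Pygm has the lowest value by either fit.

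The triose and lower glycolysis enzymes, 12 rows, held 9 that fell, 6 of them over 2-fold. Among all genes tested 24.3% fell and 9.68% fell over 2-fold. With the GC correction 1 of the 12 rows fell (Gapdh) and 1 rose (Eno1), where 10.9% of all genes tested fell and 26.4% rose. Aldoa, on chromosome 7 from 126795234 to 126800751 (ENSMUSG00000030695), was at 5189, 4023 and 4599 CPM in WT against 1746, 1698 and 841 CPM in Mmp13-/-. Its log2 fold change was -1.69 (SE 0.32, edgeR adjusted p = 0.0019) and -0.80 with the GC correction (adjusted p = 0.0508). The second Ensembl gene of that symbol (ENSMUSG00000114515, chromosome 7 from 126800790 to 126809108) adjoins the first, held only 6.5 to 10.1 CPM in WT against 1.74 to 3.44 CPM in Mmp13-/-, and changed by -1.51 (edgeR adjusted p = 0.00157), a call that was lost with the GC correction (-0.31, adjusted p = 0.412). Aldoc, the aldolase of brain, stood at 3.10 to 4.45 CPM in WT against 2.77 to 4.40 CPM in Mmp13-/- and did not pass (log2 fold change -0.17, edgeR adjusted p = 0.605, and 0.36 with the GC correction).

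Gapdh, often taken as a reference gene, was not level between the genotypes. It measured 1284, 1083 and 1222 CPM in WT against 574, 543 and 316 CPM in Mmp13-/-, a log2 fold change of -1.32 (SE 0.25, edgeR adjusted p = 0.00205) that stayed past the threshold with the GC correction (-0.77, adjusted p = 0.0185). Tpi1, triose phosphate isomerase, stood at 588, 406 and 493 CPM in WT against 296, 292 and 160 CPM in Mmp13-/- and fell by 0.99 (edgeR adjusted p = 0.0097). That call was lost with total counts (adjusted p = 0.0835) and with the GC correction (-0.37, adjusted p = 0.227). Pgk1, the X-linked phosphoglycerate kinase that makes the first ATP of the pathway, went the other way without passing, at 142, 75.1 and 114 CPM in WT against 151, 141 and 99.1 CPM in Mmp13-/- (log2 fold change 0.24, edgeR adjusted p = 0.431).

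The mutase and enolase steps each pair a muscle isoform with a broad one. Pgam2 (ENSMUSG00000020475, chromosome 11 from 5801640 to 5803733) was at 436, 332 and 381 CPM in WT against 157, 158 and 63.6 CPM in Mmp13-/-, a log2 fold change of -1.60 (SE 0.31, edgeR adjusted p = 0.00227). Pgam1 was at 51.4, 71.6 and 67.4 CPM in WT against 61.2, 51.7 and 48.4 CPM in Mmp13-/-, with overlapping groups and a log2 fold change of -0.24 (edgeR adjusted p = 0.259) that turned to 0.35 with the GC correction (adjusted p = 0.0573). The 2 rows annotated as Pgam1 pseudogenes held 11.2% to 13.1% of the counts of gene and copies together, so the reads of Pgam1 may be divided between them.

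Eno3 (ENSMUSG00000060600, chromosome 11 from 70657202 to 70662513) stood at 1316, 1028 and 1261 CPM in WT against 593, 584 and 253 CPM in Mmp13-/-. Its log2 fold change was -1.33 (SE 0.32, edgeR adjusted p = 0.00581). Eno1, the enolase of most tissues, measured 146, 177 and 175 CPM in WT against 130, 114 and 100 CPM and fell by 0.53 (edgeR adjusted p = 0.0211). This Eno1 call was lost without WT sample 4 or WT sample 5 (adjusted p = 0.0678 and 0.0658) and with total counts (0.388), and it turned with the GC correction to a rise of 0.42 (adjusted p = 0.0198). Eno2, the neuronal enolase, was lower at 15.1 to 18.7 CPM in WT against 9.33 to 12 CPM in Mmp13-/- (log2 fold change -0.71, edgeR adjusted p = 0.00463), and the difference was 0.04 with the GC correction. With the GC correction neither Pgam2 (-0.72, adjusted p = 0.0884) nor Eno3 (-0.64, adjusted p = 0.107) passed. Pkm, pyruvate kinase, closed the pathway at 1510, 1489 and 1607 CPM in WT against 696, 674 and 424 CPM in Mmp13-/- (log2 fold change -1.36, edgeR adjusted p = 0.00132), and with the GC correction it did not pass (-0.40, adjusted p = 0.12).

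Lactate genes were divided. Ldha stood at 457, 359 and 441 CPM in WT against 313, 292 and 171 CPM in Mmp13-/-, with no overlap and a log2 fold change of -0.69 (SE 0.24, edgeR adjusted p = 0.0346). The call was lost in 6 alternatives, among them without WT sample 2 (adjusted p = 0.0758), without WT sample 5 (0.0769) and with the GC correction (0.352). Ldhb, the subunit typical of heart and of tissues that burn lactate, had overlapping groups at 49.2 to 61.1 CPM in WT against 39.9 to 56.6 CPM in Mmp13-/- (log2 fold change -0.10, edgeR adjusted p = 0.661). With the GC correction its sign turned and it passed (0.50, adjusted p = 0.0243).

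Slc16a3, the lactate exporter MCT4 of glycolytic muscle and hypoxic cells, was at 89.5, 91.0 and 103 CPM in WT against 43.1, 44.6 and 18.5 CPM in Mmp13-/-. Mmp13-/- sample 6 was the lowest by a wide margin, and the log2 fold change was -1.41 (SE 0.28, edgeR adjusted p = 0.00247), or -0.54 with the GC correction (adjusted p = 0.131). Slc16a1, the widely expressed transporter MCT1, was at 41.3, 34.9 and 45.9 CPM in WT against 58.4, 56.7 and 33.4 CPM in Mmp13-/- and did not pass (log2 fold change 0.29, edgeR adjusted p = 0.287). It rose without Mmp13-/- sample 6 (log2 fold change 0.50, adjusted p = 0.0138) and with upper-quartile factors (0.48, adjusted p = 0.0384), and its difference was -0.13 with the GC correction.

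The pyruvate dehydrogenase kinases, which switch off pyruvate entry to the mitochondrial cycle, gave 2 of 3 that fell, beside 24.3% of all genes tested. Pdk2, the widely expressed kinase, was at 107, 113 and 96.7 CPM in WT against 39.4, 36.9 and 24.3 CPM in Mmp13-/-. It had the smallest adjusted p of all members (log2 fold change -1.65, SE 0.19, edgeR adjusted p = 0.000171), and its difference was -0.75 with the GC correction (adjusted p = 0.00677). Pdk4, the kinase induced by fasting and fat use in muscle, was at 194, 81.4 and 177 CPM in WT against 94.0, 98.1 and 75.9 CPM in Mmp13-/-. WT sample 4 lay within the Mmp13-/- range, and the fall of 0.76 (edgeR adjusted p = 0.0473) was lost in 8 alternatives, among them without WT sample 2 (0.121), WT sample 5 (0.101) or Mmp13-/- sample 6 (0.12). Pdk1 had no overlap at 46.4 to 53.5 CPM in WT against 32.6 to 42.6 CPM in Mmp13-/- but missed the threshold (log2 fold change -0.37, edgeR adjusted p = 0.0541); it passed without Mmp13-/- sample 1 (adjusted p = 0.0445), with DESeq2 (0.0405), with no filter (0.0434) and with the GC correction (0.0107). Pdha1, the X-linked catalytic subunit of the dehydrogenase itself, did not pass at 301, 169 and 231 CPM in WT against 205, 196 and 116 CPM in Mmp13-/- (log2 fold change -0.44, edgeR adjusted p = 0.19).

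The glycogen pair fell together. Pygm (ENSMUSG00000032648, chromosome 19 from 6384399 to 6398459), which frees glucose 1-phosphate from muscle glycogen, was at 1974, 1690 and 1619 CPM in WT against 542, 567 and 257 CPM in Mmp13-/-. This was the lowest log2 fold change of the members by either fit, -1.95 (SE 0.31, edgeR adjusted p = 0.000716), and -1.22 with the GC correction (adjusted p = 0.00937). Gys1, the glycogen synthase of muscle and most tissues outside liver, was at 253, 265 and 243 CPM in WT against 90.6, 88.2 and 57.0 CPM in Mmp13-/-, a log2 fold change of -1.69 (SE 0.20, edgeR adjusted p = 0.00018), and -0.90 with the GC correction (adjusted p = 0.00304).

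The broad core enzymes were set beside the muscle isoforms as 13 rows of 12 genes that nearly every cell uses (Hk1, Gpi1, Pfkl, Pfkp, Aldoa, Tpi1, Gapdh, Pgk1, Pgam1, Eno1, Pkm and Ldha). Of these rows 9 fell, 5 of them over 2-fold (Gpi1, Gapdh, Pkm and both rows of Aldoa), and Hk1, Pfkp, Pgk1 and Pgam1 did not pass. Among all genes tested 24.3% fell and 9.68% fell over 2-fold. Scaled by total counts, 5 of the 13 rows passed, where 40.4% of all genes tested passed. The median log2 fold change of the broad core rows was -0.76 against -1.66 in the muscle isoforms. With the GC correction the medians were -0.25 and -0.95, 2 broad rows fell (Gpi1 and Gapdh) and 2 rose (Hk1 and Eno1), and 3 of 5 muscle isoforms passed (Slc2a4, Pfkm and Pygm). So corrected, 10.9% of all genes tested fell and 26.4% rose. The summed broad core level on the log2 CPM scale was 13.27, 13.01 and 13.18 in WT against 12.07, 12.01 and 11.24 in Mmp13-/-, a difference of -1.38 with no overlap. The two-sided exact permutation test gave p = 0.1, the smallest p that 3 samples against 3 allow, and over the alternatives the difference ranged from -1.53 to -0.59. Aldoa weighed most in this sum, with a mean of 4604 of 9146 CPM in WT and 1428 of 3611 CPM in Mmp13-/-. The mean of log2 CPM per gene, which gives each row the same weight, differed by -0.84.

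Shares within a family of isoforms do not depend on library scaling, and the share of the muscle form was lower in Mmp13-/- in each family that has one. Pfkm held 97.1%, 95.9% and 95.8% of the phosphofructokinase counts per kb of exon in WT and 93.1%, 94.6% and 86.5% in Mmp13-/-. The share of Pgam2 among the mutases was 95.2%, 91.6% and 93.0% in WT against 85.8%, 87.8% and 75.6% in Mmp13-/-. Eno3 made up 96.1%, 94.1% and 95.3% of enolase in WT and 92.9%, 93.4% and 87.6% in Mmp13-/-. In none of these 3 families did the genotypes overlap, and sample 6 gave the lowest share in each. The size of a share depends on the merged exon lengths. From counts not divided by length, the differences were -10.8 percentage points for Pfkm, -17.5 for Pgam2 and -8.98 for Eno3. Slc2a4 took 84.6% ± 4.35 (SD, n = 3) of the 3 glucose transporters in WT and 71.4% ± 7.45 in Mmp13-/-, and Hk2 took 86.2% ± 2.15 and 74.8% ± 4.14 of the 2 hexokinases. The share of Ldhb, which is the form less used in fast muscle, was higher in Mmp13-/- at 29.4% ± 3.15 against 21.2% ± 1.89, and that of Aldoc, a rare form here, was 0.261% ± 0.174 against 0.0782% ± 0.023.

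Slc16a3 showed the widest shift of the 8 families, from 64.3%, 68.4% and 65.2% of the 2 lactate transporters in WT to 38.0%, 39.6% and 31.5% in Mmp13-/-. That difference of -29.6 percentage points became -8.38 with the GC correction, where Slc16a3 (transcript GC content 56.6%) and Slc16a1 (42.9%) are treated according to their base composition. For the other 7 families the corrected differences were -4.62 points for Pfkm, -8.05 for Pgam2, -4.76 for Eno3, 9.93 for Ldhb, -10.7 for Slc2a4, -15.2 for Hk2 and 0.139 for Aldoc. In all 8 families the genotypes did not overlap, with or without the correction, and the exact permutation test gave p = 0.1 for each (0.1 after adjustment over the 8 families), the smallest it can give. Without Mmp13-/- sample 6 the differences were smaller, at -2.38 points for Pfkm, -6.49 for Pgam2, -2.04 for Eno3 and 0.0833 for Aldoc.

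**Figure D3:**
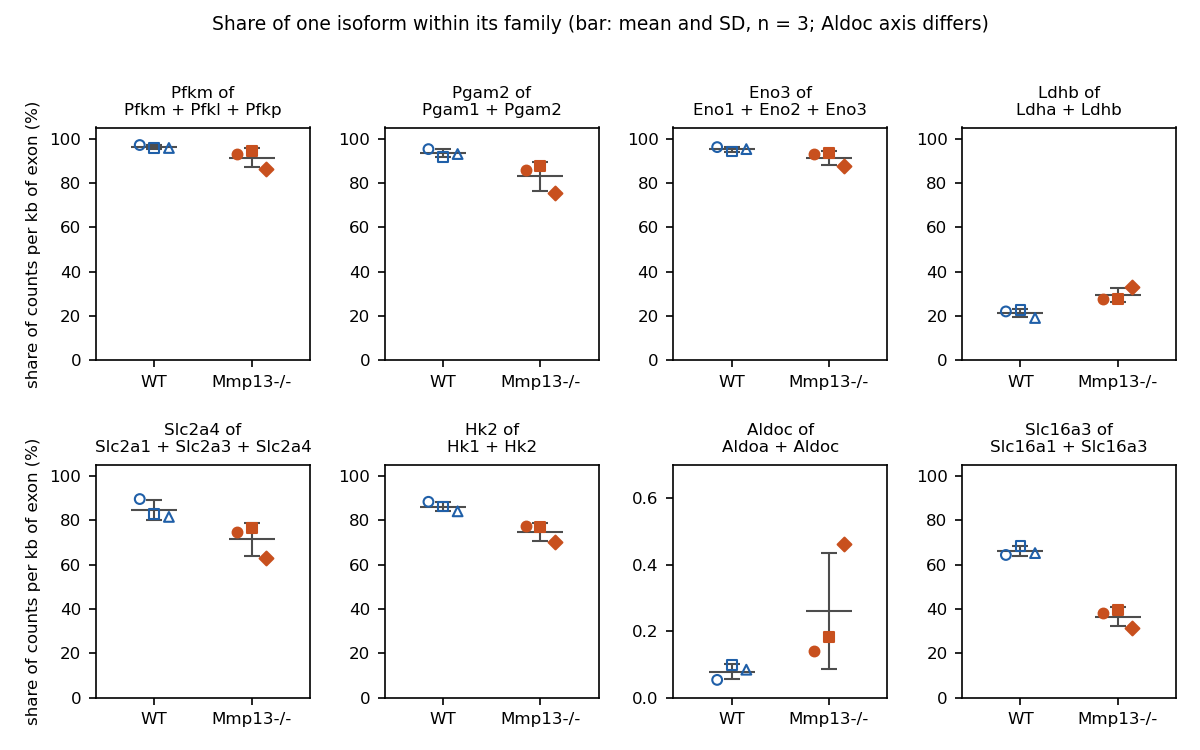
Percent of the counts per kb of exon of a family held by 1 isoform, in each sample, for 8 families, with the mean and SD of 3 samples per genotype as bars and symbols as for the sample levels (open WT circle, square and triangle for 2, 4 and 5; filled circle, square and diamond for Mmp13-/- 1, 2 and 6). The genotypes do not overlap in any family; Pfkm, Pgam2, Eno3, Slc2a4, Hk2 and Slc16a3 are lower and Ldhb and Aldoc higher in Mmp13-/-, and the Aldoc panel has an axis that ends below 1%.

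Skeletal muscle markers moved with the muscle isoforms. Of 20 markers of skeletal muscle, 13 fell, all of these over 2-fold, and 7 did not pass, with a median log2 fold change of -1.26 and no marker at 0, where 24.3% of all genes tested fell. After the GC correction 6 of the 20 fell (median -0.83), and with total counts 10 did. Their summed level was 117286 to 139133 CPM in WT against 31519 to 69763 CPM in Mmp13-/-, and it was lowest in sample 6. Casq1, the calcium store protein of the sarcoplasmic reticulum, changed by -1.92 (edgeR adjusted p = 0.000921), Acta1, skeletal actin, by -1.88 (0.00154) and Atp2a1, the fast calcium pump, fell too (0.00188). In contrast Ttn (-0.87, edgeR adjusted p = 0.1) and Mb, myoglobin (-0.02, adjusted p = 0.967, and 0.71 with the GC correction), did not pass. The part of the muscle markers in the fall of the members was not tested, and in bulk tissue fewer muscle cells and less of these RNAs per cell cannot be told apart.

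The log2 ratio of the summed muscle isoform counts to the summed muscle marker counts was -4.72, -4.72 and -4.70 in WT against -5.19, -5.22 and -5.25 in Mmp13-/-. The samples of each genotype were close together, and the difference was -0.51 (exact permutation p = 0.1, the smallest possible). With the GC correction the ratio was -4.86, -4.96 and -4.89 in WT against -4.96, -4.99 and -5.07 in Mmp13-/-, where Mmp13-/- sample 1 lay within the WT range, and the difference was -0.10 (exact permutation p = 0.2). Taken over the other alternatives the difference lay between -0.53 and -0.45. By muscle isoform and without the GC correction, the difference ran from -0.78 for Pygm to -0.18 for Eno3. A fall against the markers was not particular to muscle isoforms, with -0.51 for Aldoa and -0.47 for Gys1. Of all 33 member genes, 13 had a negative and 20 a positive difference. All Mmp13-/- samples lay below all WT samples in 8 of these genes and above them in 14. For Eno3, Mmp13-/- sample 1 lay within the WT range.

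**Figure D4:**
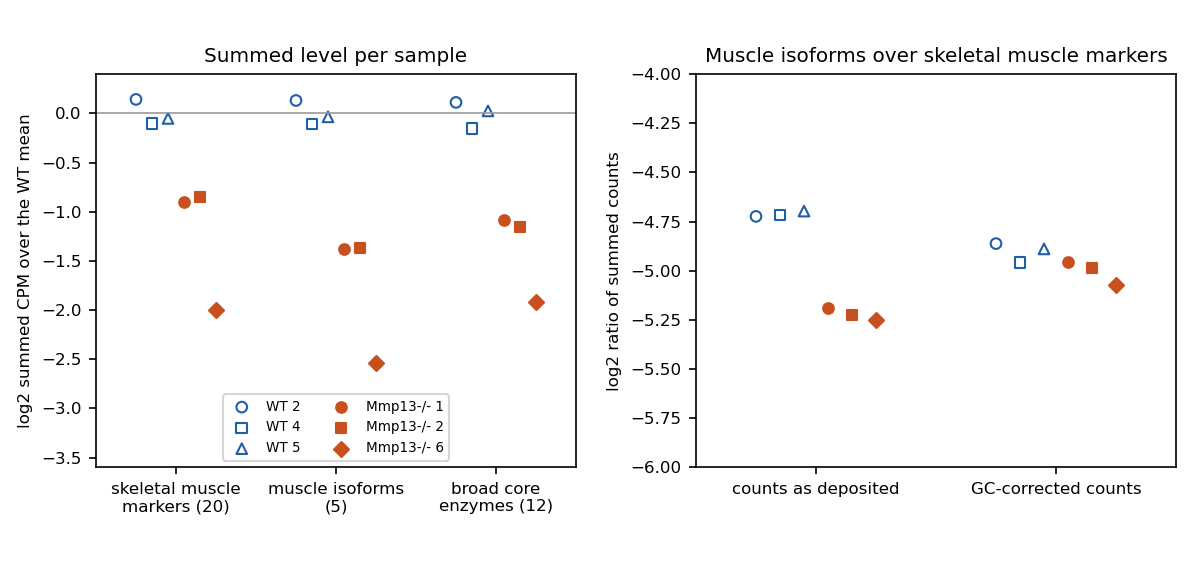
Left, log2 summed CPM relative to the WT mean in each sample for the 20 skeletal muscle markers, the 5 muscle isoforms and the 12 broad core enzymes; right, log2 ratio of summed muscle isoform counts to summed muscle marker counts, from the counts as deposited and after the GC correction. All Mmp13-/- samples lie below WT in the left panel, with sample 6 the lowest of each set, and the gap of -0.51 in the right panel narrows to -0.10 with the correction.

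Other cell type markers moved in both directions in the same libraries, where 24.3% of all genes tested fell and 27.3% rose. All 8 erythroid markers rose (median log2 fold change 2.19, summed level 577 to 948 CPM in WT against 1699 to 3275 CPM in Mmp13-/-). Of the 8 neutrophil markers, S100a9 changed most, by 5.19, and 7 of 8 proliferation markers rose (median 1.83), among them Top2a at 2.28. Odontoblast markers were split, with 3 lower (Col1a1, Nes and Col1a2), 3 higher (Ibsp, Phex and Dspp) and 2 that did not pass, as were the pulp fibroblast markers with 2 lower (Col3a1 and Thy1, which turned to 0.33 with the GC correction) and 3 higher (Lum, Dcn and Pdgfra). Adipocyte markers gave 1 lower (Lipe) and 4 higher (led by Adipoq at 2.09), and among 9 neuron and Schwann cell markers tested 2 were lower (Prx and Sox10, which turned to 0.43 with the GC correction) and 1 higher (Snap25, at 0 in WT sample 5), and Nefl was at 0 in 2 WT samples. Corrected for GC content, the odontoblast markers gave 1 lower and 4 higher (median 0.39), and the lower calls of Nes, Col1a2, Lipe, Prx and Sox10 were lost. With the receptor background subtracted, 8 neuron and Schwann cell markers were tested, 3 lower and 0 higher, so the Snap25 rise was not kept. Of 7 adipocyte markers then tested 2 were lower and 3 higher. Among 22856 genes tested in that fit, 5484 fell and 5743 rose. The part of these cell types in the changes of the members was not tested.

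Genes that share the pathway but are not members were counted from fixed lists in the same fit. Of 14 other glycogen genes 7 fell and 1 rose, with a median log2 fold change of -0.52. Among all genes tested 24.3% fell, 27.3% rose and 51.6% passed in either direction. Phkg1, the muscle form of the catalytic subunit of phosphorylase kinase, which activates Pygm, stood at 201, 158 and 145 CPM in WT against 67.6, 76.2 and 28.7 CPM in Mmp13-/- (log2 fold change -1.54, edgeR adjusted p = 0.00272). Phkg2 fell by 0.82 (edgeR adjusted p = 0.00154) and Epm2a, the glycogen phosphatase laforin, changed by -0.996 (edgeR adjusted p = 0.00318). The gene that rose was Pygl, the liver phosphorylase that is also used by leukocytes, at 21.1, 24.0 and 24.5 CPM in WT against 43.8, 50.4 and 28.7 CPM in Mmp13-/- (log2 fold change 0.82, edgeR adjusted p = 0.00668).

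Isoforms typical of liver and leukocytes gave 3 higher of 7 tested and 4 that did not pass, where 27.3% of all genes tested rose. Those that rose were Pygl together with Pklr, the pyruvate kinase of liver and red cells (log2 fold change 1.76, edgeR adjusted p = 0.00314), and Fbp1, a gluconeogenic phosphatase (2.57, edgeR adjusted p = 0.00564), which stood at 0.0543 to 0.207 CPM in WT, near the floor, and 0.678 to 0.877 CPM in Mmp13-/-. G6pc, glucose 6-phosphatase, was at 0 counts in all WT samples. Among the germ cell isoforms 4 of 7 were tested, of which Gapdhs was lower (a call lost with the GC correction) and Ldhc higher, and Pdha2 was at 0 counts in all WT samples. The receptor background given above was higher in the same Mmp13-/- libraries. With this background subtracted, 3 germ cell isoforms were tested, 1 lower and 0 higher, so the Ldhc rise was not kept. Of 6 liver and leukocyte isoforms then tested 2 rose, where 5743 of 22856 genes tested rose and 5484 fell. The part of the background in these low levels was not tested beyond this subtraction.

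The pentose phosphate pathway, which draws glucose 6-phosphate away for NADPH and ribose, had 1 lower (Pgls), 2 higher (Rpe and G6pdx) and 4 of 7 that did not pass, with a median log2 fold change of 0.02. Of all genes tested 51.6% passed in either direction. With the GC correction 5 of the 7 were higher and 0 lower (median 0.63), where 26.4% of all genes tested rose and 10.9% fell. G6pdx, its first enzyme, was at 21.8, 25.4 and 31.5 CPM in WT against 41.4, 33.7 and 33.7 CPM in Mmp13-/- (log2 fold change 0.47, edgeR adjusted p = 0.041). Pgls fell by 0.65 (edgeR adjusted p = 0.00365) and turned to a rise of 0.30 with the GC correction (adjusted p = 0.045). Pyruvate carriers and the rest of the dehydrogenase complex gave 4 lower and 2 higher of 10. Among all genes tested 24.3% fell and 27.3% rose. After the GC correction 5 of the 10 were lower and 0 higher, where 10.9% of all genes tested fell and 26.4% rose. Pcx, which carboxylates pyruvate to oxaloacetate, was at 88.4, 66.5 and 83.4 CPM in WT against 29.2, 30.5 and 20.4 CPM in Mmp13-/- (log2 fold change -1.57, edgeR adjusted p = 0.000188), and Dlat, the acetyl transferase of the complex, changed by -1.23 (edgeR adjusted p = 0.000852), while Dld, its dehydrogenase subunit shared with other complexes, rose by 1.06 (edgeR adjusted p = 0.00831) and did not pass with the GC correction (0.42, adjusted p = 0.11).

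HIF-1 is an oxygen-sensing factor known to act on glycolysis genes, and of the 15 genes in its pathway list 6 were lower and 2 higher, beside 51.6% of all genes tested that passed in either direction. After the GC correction these were 4 lower and 2 higher, where 10.9% of all genes tested fell and 26.4% rose. Hif1a itself was at 70.9, 62.6 and 78.4 CPM in WT against 128, 135 and 108 CPM in Mmp13-/-, a rise of 0.81 (edgeR adjusted p = 0.0021) that missed the threshold with the GC correction (0.25, adjusted p = 0.082). Vegfa, the vascular growth factor and a target of HIF-1, was at 235, 230 and 232 CPM in WT against 83.0, 84.8 and 51.2 CPM in Mmp13-/- (log2 fold change -1.67, edgeR adjusted p = 0.000213). The prolyl hydroxylases that mark HIF-1 for breakdown fell as well, Egln2 by 1.46 (edgeR adjusted p = 9.01e-05) and Egln1 by 1.43 (edgeR adjusted p = 0.000384), and Egln2 did not pass with the GC correction (-0.18, adjusted p = 0.2). Hilpda, a lipid droplet protein induced by hypoxia, rose by 0.70 (edgeR adjusted p = 0.0301) from 2.06 to 2.85 CPM in WT to 3.47 to 4.11 CPM in Mmp13-/-.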

How the data were processed

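Pulp of 3 WT and 3 Mmp13-/- mice was sequenced (paired 150-base reads, HiSeq 2500) with the genotype taken from the sample labels. The estimated counts per Ensembl gene were made by the authors in Strand NGS 4.0 from reads aligned to mm10, and the aligner settings and annotation release are not given in the sources used here. The deposited log2 values are those counts over DESeq size factors, with a threshold of 1 and centred per gene; recomputing them gave a largest difference of 2.35e-06. No column was left without a sample.

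Rounded estimated counts were analysed by edgeR 4.0.16 under R 4.3.3 (quasi-likelihood, TMM factors, filterByExpr, Benjamini-Hochberg adjustment over 24534 genes, threshold 0.05, no covariates), a script tested on simulated data. The study's gene-wise test with its q-value was replaced by this test because counts need a count model. The floor is 3 counts. CPM are estimated counts per 1000000 of the TMM-scaled library. Exon length, GC content and positions came from GENCODE M21 (GRCm38), which matched 99.8% of rows, and promoter windows from the RefSeq table for GRCm38.p6. Exon length merges all annotated exons of a gene, and GC content is that of its longest transcript. The GC correction is a loess fit per sample (span 0.4, genes with a mean log2 CPM over 3) used as offsets. Shares and ratios were compared with two-sided exact permutation tests. Alternatives were RLE and upper-quartile factors, total counts, scaling without the 10 most abundant genes, no filter, at least 10 counts in every sample, DESeq2 1.42.0, limma 3.58.1, the GC correction, subtraction of a background rate per kb of exon over 1451 receptor genes, an adjusted p under 0.01, a fold over 2 and each sample left out in turn. The GC correction of shares and ratios was added after seeing the data.

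The members, the isoform families and all lists were chosen with earlier results of these data known. Genes named besides the members are Mmp13 and, from each other list, at most 3 per direction with the smallest adjusted p and any marker at 0; Ttn, Mb, Dspp, Ldhc, Gapdhs and the other genes named with a count of their list were added after their values were seen. Protein sequences were not used here.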

Additional observations from a re-analysis of the deposited data

How the results depend on the processing

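No paired analysis was possible because the genotypes share only the replicate number 2. Of all genes tested, 12665 passed, against 19292 with no filter and 7381 with a fold over 2, and leaving out 1 sample gave 10917 to 12864. Higher and lower calls were 6710 and 5955 in the reported fit, 8169 and 4618 under upper-quartile scaling, 6851 and 3069 for total counts and 6485 and 2678 with the GC correction; these moved the median of all genes from 0.10 to 0.32, 0.21 and 0.28, and the medians of the members were then -0.66, -0.74 and -0.38. The 24 members passing became 15 with the GC correction, 15 with a fold over 2, 16 with total counts and 20 to 24 with 1 sample left out. The 5 muscle isoforms passing became 3 with the GC correction and stayed at 5 with each sample left out. The 9 broad core rows passing became 5 with total counts, 4 with the GC correction, 5 with a fold over 2 and 7 to 9 with 1 sample left out. Of all genes tested 40.4% passed with total counts and 37.3% with the GC correction. Signs turned with the GC correction for Hk1 (0.60), Pfkl (0.16), Pfkfb4 (0.13), Aldoc (0.36), Pgam1 (0.35), Eno1 (0.42), Eno2 (0.0377), Ldhb (0.50) and Slc16a1 (-0.13). They also turned for Aldoc (0.0599) and Ldhb (0.10) with upper-quartile factors, for Ldhb with total counts (0.0424), at least 10 counts (0.0255) and background subtraction (0.0566). With 1 sample left out, Ldhb ranged from -0.259 to 0.0441 and Pfkfb1 from -0.419 to 0.0045, both turning without Mmp13-/- sample 6, and Pgk1 from -0.0123 (without WT sample 4) to 0.412. The cause was not tested. RLE factors, and scaling without the 10 most abundant genes, changed no call or direction among the 34 rows. With 3 samples per genotype no exact test can go below 0.1, no batch or date is given, and a library batch and the genotype cannot be told apart.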
